A study of Arabidopsis thaliana with 8 samples.

Results

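The genes described here are those encoded by the chloroplast genome of Arabidopsis thaliana, measured in dark-grown seedlings. They were taken as the array probe sets that name a single gene on the plastid chromosome with a protein-coding symbol, 1 probe set per gene. This gave 69 of the 78 plastid protein-coding symbols in the gene table, out of 13356 genes named on the array in the same way. Of the others, ndhB, rpl2, rpl23, rps7, rps12, ycf1 and ycf2 lie on probe sets that name several genes and were not used here. The 69 genes comprise 5 of photosystem I, 15 of photosystem II, 6 of the cytochrome b6f complex, 6 of the ATP synthase, 10 of the NDH complex, rbcL, 4 of the plastid RNA polymerase, 7 and 8 of the large and small ribosomal subunits, and 7 others.

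The samples were wild-type Col-0 seedlings, 3 days old, grown in the dark and then frozen, with 4 ethylene arrays and 4 air arrays. Ethylene seedlings had 68 h of air followed by 4 h of 10 ppm ethylene, and air seedlings had 72 h of air. Each group came from 2 experiments with 2 replicas each, so an array is called by its group, experiment and replica, as in ethylene 2-1 or air 1-2. Since no label calls the replicas separate cultures, a p-value here reflects the spread among these arrays alone, and that spread may be technical. The values are the authors' deposited intensities, 1 linear value per probe set and array, and a level on one probe set cannot be set against a level on another.

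In darkness the plastids of a seedling's cotyledons are etioplasts, which lack the photosynthetic membranes of chloroplasts and form them once light arrives. The plastid genome nevertheless encodes core subunits of each photosynthetic complex, the large subunit of Rubisco, subunits of a bacterial-type RNA polymerase and part of the plastid ribosome, while the remaining subunits are encoded in the nucleus. Most plastid genes stand in clusters that are transcribed together and cut into smaller RNAs, and plastid mRNAs mostly lack the long poly(A) tails of nuclear mRNAs. Ethylene is a gaseous hormone that shortens and thickens the dark-grown hypocotyl and tightens its apical hook.

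The plastid genes moved together from array to array, and they did so between replicas of the same group. Intensities were put on the scale log2(intensity + 16), and each gene was set against its own mean over the 8 arrays. A filter on the 30% dimmest probe sets left 15922, among them 68 of the 69 plastid genes. The median over these 68 genes was −0.52, −0.15, 0.00 and 0.29 on ethylene 1-1, 1-2, 2-1 and 2-2, against 0.72, −0.40, −0.56 and 0.72 on air 1-1, 1-2, 2-1 and 2-2. The highest plastid levels were thus on 1 air array of each experiment, and the lowest on the other air array of experiment 2 and on ethylene 1-1. Over all tested probe sets the same medians stayed between −0.03 and 0.06. In whole seedlings, fewer plastids or cells, less plastid RNA per cell and a technical difference between arrays cannot be told apart.

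Every tested plastid gene, 68 of 68, was brighter on air 1-1 than on air 1-2, with a median of 2.30-fold, and 68 of 68 were brighter on air 2-2 than on air 2-1, with a median of 2.25-fold. Over all tested probe sets 54.0% and 50.6% were brighter in these comparisons. A difference of at least 2-fold was seen for 46 plastid genes on air 1-1 against air 1-2, where 3.51% of all tested probe sets passed that fold. For air 2-2 against air 2-1 it was 44 plastid genes, where 1.09% of all passed. The largest steps were those of atpH (log2 2.56), the ring subunit of the ATP synthase, in experiment 1 and of psbA (log2 2.68), a reaction centre protein of photosystem II, in experiment 2. The smallest were those of psbJ (0.02) and psaJ (0.006). Each of these comparisons is of 1 array with 1 array and has no replicate check.

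The ethylene replicas differed less evenly. On ethylene 1-2 against ethylene 1-1, 51 of 68 plastid genes were brighter, the median was 1.26-fold, and 9 passed 2-fold against 3.28% of all tested probe sets. On ethylene 2-2 against ethylene 2-1, 42 of 68 were brighter, the median was 1.27-fold, and 12 passed 2-fold against 1.26% of all. The largest step in experiment 2 was that of rbcL (log2 2.73), the catalytic subunit of Rubisco. There petL, a small subunit of the cytochrome complex, ran the other way (−1.79). The gene rbcL had 3368, 3624, 1522 and 10208 intensity units on the ethylene arrays 1-1, 1-2, 2-1 and 2-2, against 7370, 3784, 1948 and 7603 on the air arrays in the same order. Its lowest and its highest value of all 8 were thus both on ethylene arrays of experiment 2.

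**Figure D1:**
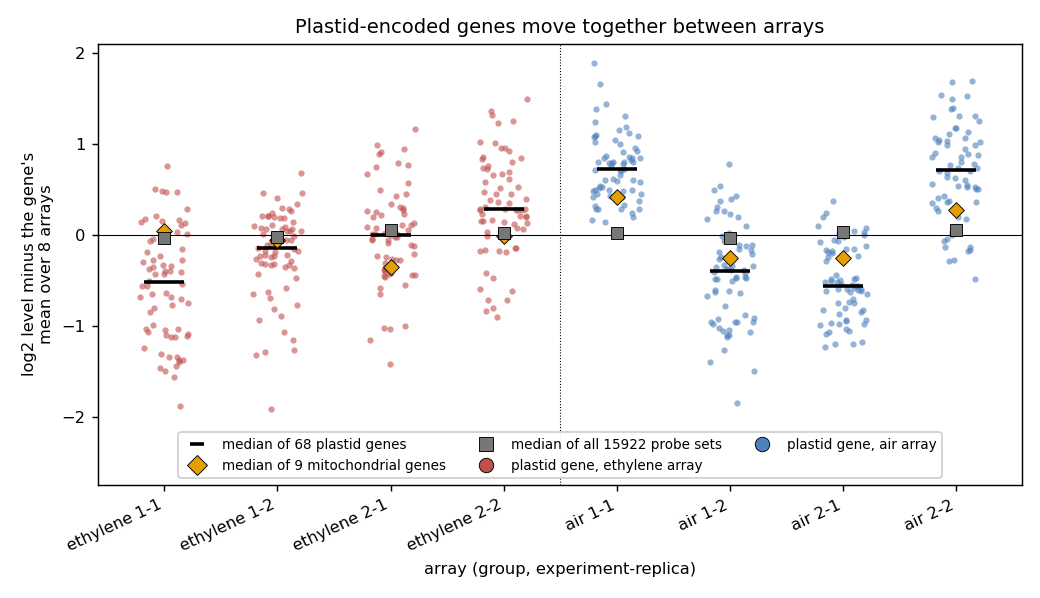
Level of each of the 68 tested plastid genes on each array, as log2(intensity + 16) minus the gene's own mean over 8 arrays (vertical axis), with the ethylene arrays on the left and the air arrays on the right. The black bars, medians of the plastid genes, run from −0.56 on air 2-1 to 0.72 on air 1-1 and air 2-2, while the grey squares, medians of all 15922 tested probe sets, stay near 0; diamonds are medians of 9 mitochondrially encoded genes.

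Values that moved with these plastid medians were looked for on the same arrays. In each of the 4 pairs of replicas the array with the higher plastid median also had the brighter probe set for cytosolic 25S ribosomal RNA. That probe set read 957.0 on ethylene 1-2 and 797.1 on ethylene 1-1, and 2478 on ethylene 2-2 and 44.0 on ethylene 2-1. In air it read 2152 on air 1-1 and 600.1 on air 1-2, and 77.2 on air 2-2 and 15.7 on air 2-1. Across pairs this order did not hold. Air 2-2 read below air 1-2 and ethylene 1-1, whose plastid medians were lower. The 5S ribosomal RNA probe set did not follow the plastid genes, with 1270 on air 1-1 against 525.8 on air 1-2 but 721.1 on air 2-2 against 1453 on air 2-1. The log2 ratio of the 3′ to the 5′ probe set of a control gene is a measure of RNA integrity. For actin it was 0.96, 1.72, 2.28 and 3.21 on ethylene 1-1, 1-2, 2-1 and 2-2, against 1.01, 0.50, 2.50 and 1.87 on air 1-1, 1-2, 2-1 and 2-2. It was thus higher on the replica with the higher plastid median in 3 of the 4 pairs, and lower in the pair of air 2-2 and air 2-1. The GAPDH ratio was also higher on that replica in 3 of the 4 pairs, with 0.50 on air 1-1 against 0.11 on air 1-2, 0.18 on air 2-2 against 0.02 on air 2-1, −0.25 on ethylene 1-2 against −0.35 on ethylene 1-1, but −0.08 on ethylene 2-2 against 0.04 on ethylene 2-1. For ubiquitin it was again 3 of 4, with 1.62 against 1.53 and 1.03 against 0.90 in the same air pairs, 1.46 on ethylene 2-2 against 0.78 on ethylene 2-1, but 1.1 on ethylene 1-2 against 1.44 on ethylene 1-1. The part of any of these in the plastid values was not tested. The method of labelling the RNA is not given in the sources used here.

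Mitochondrially encoded genes, the other set of organelle transcripts, moved in the same direction over the air arrays but less. For 9 tested genes such as cox1 and nad5, subunits of the respiratory chain, the medians were 0.05, −0.05, −0.35 and −0.01 on the ethylene arrays and 0.42, −0.26, −0.25 and 0.28 on the air arrays. Of these 9 genes, 8 were brighter on air 1-1 than on air 1-2 and 6 were brighter on air 2-2 than on air 2-1. Nuclear genes of photosynthesis also had a higher median on air 1-1 than on air 1-2, and on air 2-2 than on air 2-1. These steps were smaller than those of the plastid genes, and on air 2-2 the nuclear median was below 0. Over 12 such nuclear genes the medians were 0.07, 0.10, 0.08 and −0.10 on the ethylene arrays and 0.29, 0.05, −0.38 and −0.13 on the air arrays.

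Single plastid genes followed the common movement to different degrees. The SD over the 8 arrays had a median of 0.69 log2 units over the 68 plastid genes and of 0.34 over all tested probe sets, and 65 of the 68 exceeded that second value. When the plastid median of each array was subtracted, the median SD of the plastid genes fell to 0.51, and 58 of 68 became less variable. Part of this fall is built in, since the subtracted median comes from the same 68 genes. The gene cemA, for a protein of the inner plastid envelope, followed most closely, with an SD of 0.56 before and 0.16 after subtraction. By contrast rps14 and rpl14, for ribosomal proteins, kept an SD of 0.97 and 0.92. The genes rps18, rpl32 and psbI varied least over the 8 arrays, with SDs of 0.32, 0.33 and 0.32.

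Among the complexes, the large ribosomal subunit spanned the widest range apart from rbcL, which stands alone in its group. Its 7 genes had medians of −1.40, −0.25, 0.74 and 0.73 on ethylene 1-1, 1-2, 2-1 and 2-2, against 0.45, −1.10, −0.16 and 1.02 on air 1-1, 1-2, 2-1 and 2-2. The cytochrome b6f complex, which passes electrons from photosystem II to photosystem I, spanned the narrowest range, between −0.38 on air 2-1 and 0.79 on air 1-1. All 10 groups had their highest median on air 1-1, air 2-2 or, for rbcL, ethylene 2-2.

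**Figure D2:**
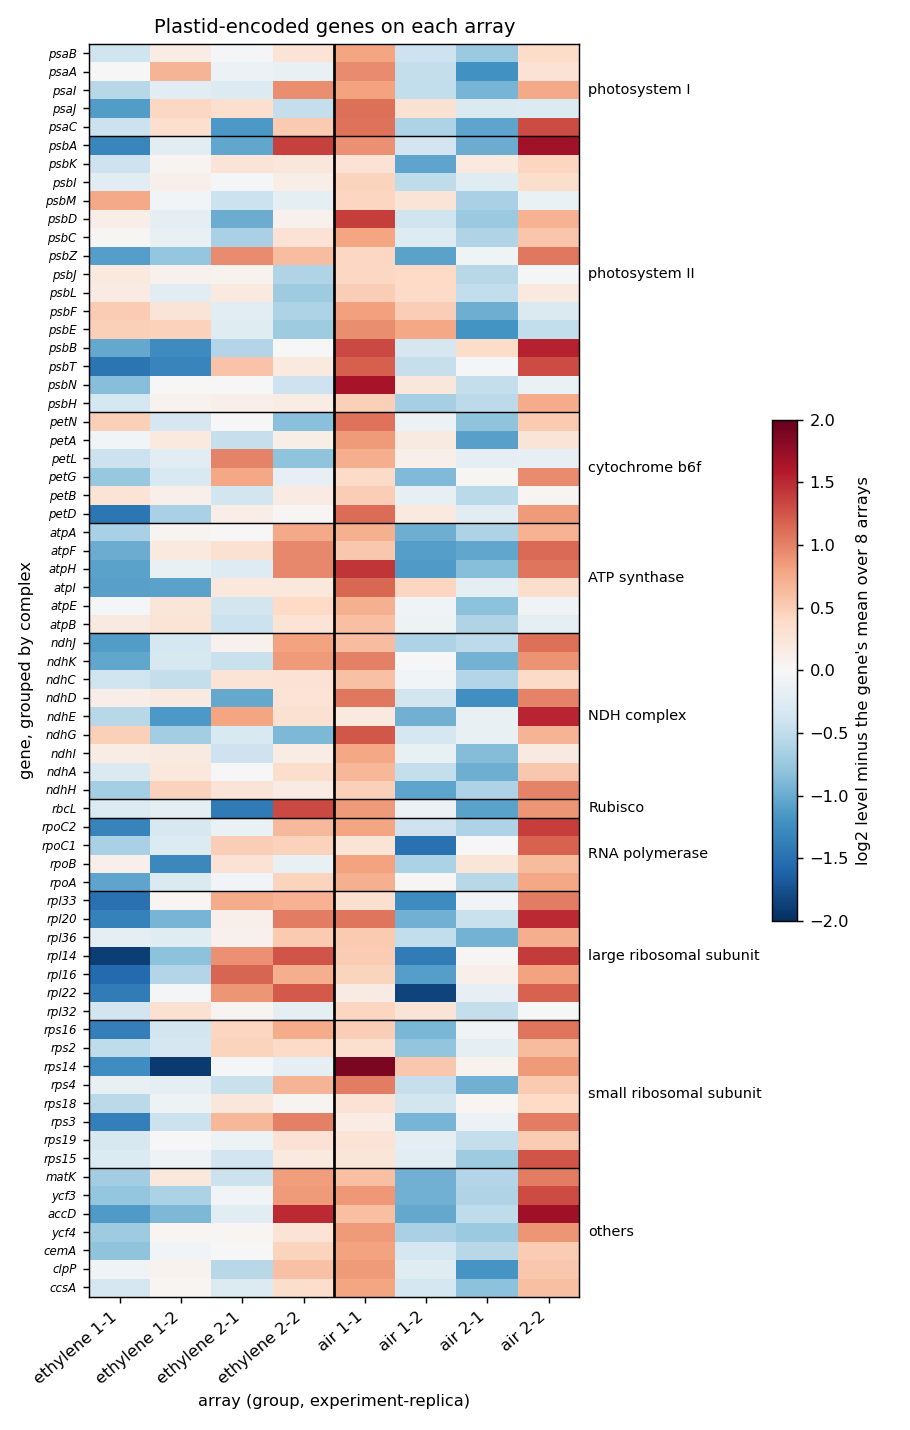
Level of each tested plastid gene (rows, grouped by complex) on each array (columns, ethylene left of the line, air right), as log2(intensity + 16) minus the gene's mean over 8 arrays, from blue (low) to red (high). The columns air 1-1 and air 2-2 are red over nearly the whole height, whereas their replicas air 1-2 and air 2-1 are mostly blue.

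Ethylene against air addressed whether a few hours of the hormone alter plastid transcript levels in darkness. None of the 68 tested plastid genes passed the test for ethylene against air (limma over all 15922 probe sets, Benjamini-Hochberg adjusted p under 0.05), where 4.15% of all tested probe sets were called. At an unadjusted p under 0.05, 3 were lower (psbB, rps14 and petD) and 0 higher, where 1391 of all 15922 were lower and 852 higher. The log2 difference, ethylene minus air, was below 0 for 52 genes and above 0 for 16, with a median of −0.16, against 0.01 over all tested probe sets. That median depended on single arrays. It was 0.01 without air 1-1 and 0.06 without air 2-2, the 2 arrays with the highest plastid levels, −0.37 without air 1-2 and −0.38 without air 2-1, and −0.02 without ethylene 1-1. With each array scaled to a common plastid median it was 0.06, and the median over all probe sets was then 0.24.

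The tested genes with the lowest differences between ethylene and air were psbB, for an antenna protein of the photosystem II core, and rps14, for a protein of the small ribosomal subunit. For psbB the arrays gave 848.3, 719.0, 1164 and 1737 in ethylene 1-1, 1-2, 2-1 and 2-2, against 4370, 1387, 2264 and 5093 in air 1-1, 1-2, 2-1 and 2-2 (mean 1117 ± 453.8 in ethylene and 3279 ± 1741 in air; SD, n = 4 each). Ethylene 2-2 lay above air 1-2, so the groups overlapped, although each experiment taken alone had both ethylene values below both air values. The difference was −1.44 (SE 0.41, limma adjusted p = 0.0863). With the experiment as a block psbB was called lower (limma adjusted p = 0.00663), and with the 4 same-numbered pairs as blocks as well (0.000827). No label pairs these replicas, so the second value rests on an assumed pairing. The call under the experiment block was kept with each of the 8 arrays left out in turn, with adjusted p between 0.00135 and 0.0300.

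The probe set of rps14 was dim, with 160.0, 94.2, 394.5 and 353.0 in ethylene 1-1, 1-2, 2-1 and 2-2, against 1528, 589.0, 421.5 and 737.6 in air 1-1, 1-2, 2-1 and 2-2. It was the 1 plastid gene whose 4 ethylene values all lay below its 4 air values, a pattern that 6.34% of all tested probe sets showed. Its difference was −1.68 (SE 0.49, limma adjusted p = 0.102), and with the experiment as a block it was called lower (limma adjusted p = 0.0232). This call ended when ethylene 1-1, ethylene 1-2, air 1-1, air 1-2 or air 2-2 was left out, with adjusted p between 0.0523 and 0.0759. Together psbB and rps14 made 2 of 68 plastid genes called lower with the block, where 7.35% of all tested probe sets were. Neither was called with the replicas as a random block (limma adjusted p = 0.391 and 0.331). On arrays scaled to the plastid genes, with the block, 0 plastid genes passed. At an unadjusted p under 0.05, 0 of them were higher and 2 lower, where 449 and 245 of all tested probe sets were. That scaling takes out the movement the plastid genes share and puts it onto every other probe set. Over all tested probe sets 114 were then called higher and 46 lower, in place of 690 and 1170. The loss of the 2 calls there cannot be read as a result about psbB and rps14.

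Neighbours of these 2 genes did not all show the same difference. The genes psbB, psbT, psbH, petB and petD are known to be transcribed as one cluster, with psbN on the other strand between psbT and psbH. Along it the ethylene differences were −1.44 for psbB, −1.01 for psbT, −0.63 for psbN, −0.02 for psbH, 0.09 for petB and −0.97 for petD. The last of these, subunit IV of the cytochrome complex, read 159.0, 285.8, 502.4 and 469.4 in ethylene 1-1, 1-2, 2-1 and 2-2, against 1014, 529.1, 389.5 and 841.4 in air 1-1, 1-2, 2-1 and 2-2 (SE 0.41, limma adjusted p = 0.306). Its neighbour petB, cytochrome b6 itself, read 55282, 48988, 35349 and 50736 in ethylene against 63855, 40678, 31388 and 46549 in air in the same order, and the groups overlapped. In the cluster psaA-psaB-rps14, which begins with the reaction centre genes of photosystem I, the differences were 0.22 for psaA, 0.00 for psaB and −1.68 for rps14.

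Many of the dim plastid genes had ethylene differences below 0. Of the 10 dimmest tested plastid genes, with mean intensities of 328.2 to 910.1, 9 had a difference below 0, with a median of −0.58, and rps14, petD, psbT and atpI were among them. The gene psbB, with a mean intensity of 2198, and ndhG, with 1614, were not. Of the 10 brightest, with mean intensities of 21781 to 66593, 3 did, with a median of 0.04. Without detection calls a dim value cannot be told from background, and the part of brightness in these differences was not tested. The 1 plastid gene under the filter, ndhF of the NDH complex, read 56.1, 13.0, 315.0 and 54.6 in ethylene 1-1, 1-2, 2-1 and 2-2, against 536.5, 152.9, 313.7 and 592.2 in air 1-1, 1-2, 2-1 and 2-2. When no filter was used its difference was −2.15 (SE 0.70, limma adjusted p = 0.189).

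**Figure D3:**
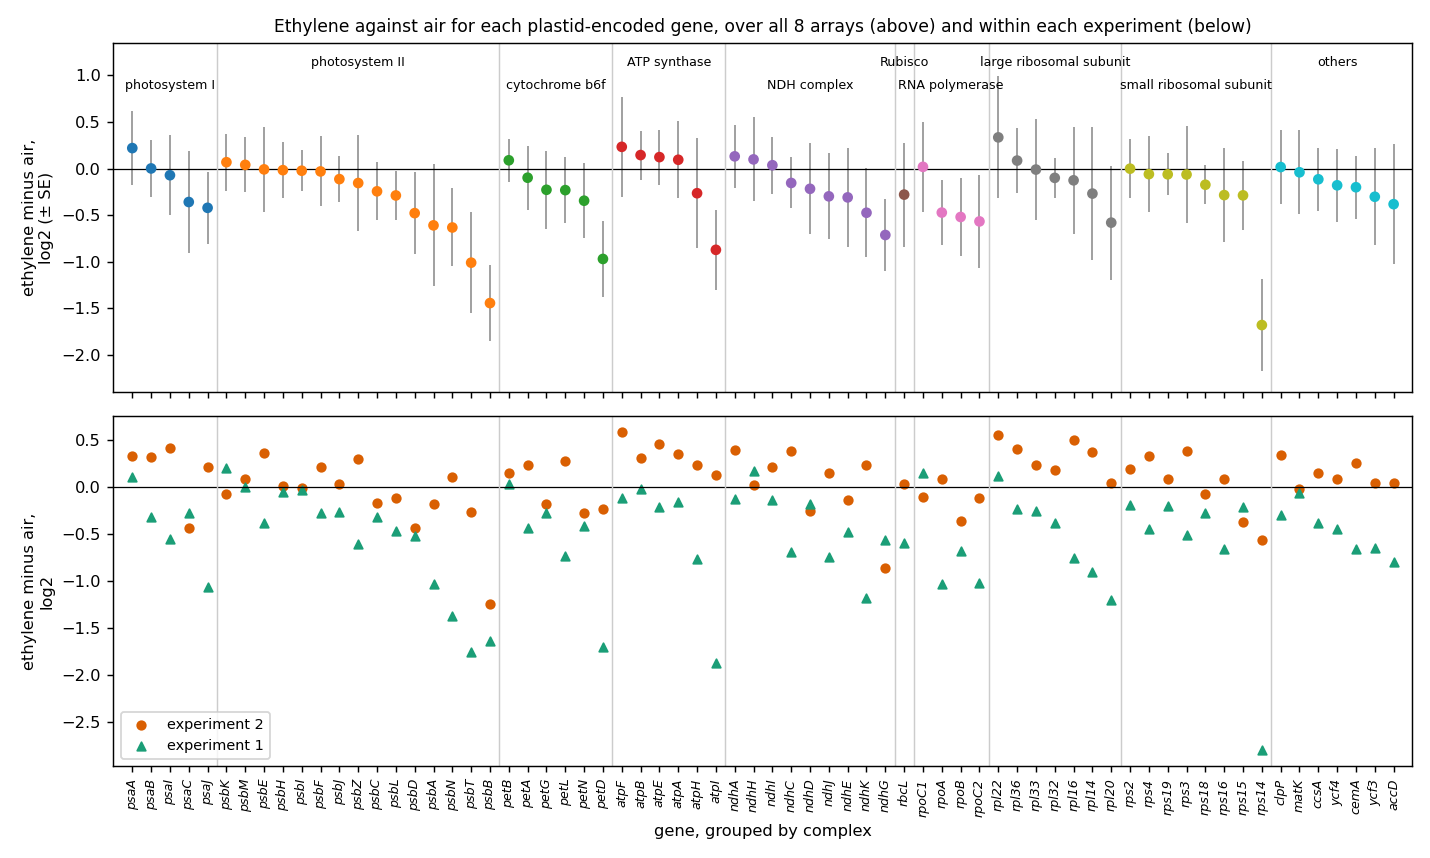
Difference between ethylene and air on the log2 scale for each of the 68 tested plastid genes, grouped by complex, over all 8 arrays with its SE (above) and within experiment 2 (circles) and experiment 1 (triangles) (below). In the upper panel psbB at −1.44 and rps14 at −1.68 are the lowest points, and in the lower panel the triangle lies below the circle for 61 of 68 genes.

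The remaining genes are given by complex, first the photosystems and the chain between them. In photosystem I, 2 of 5 differences were above 0, between −0.42 for psaJ and 0.22 for psaA. The reaction centre gene psaA read 7692, 12247, 7066 and 6894 in ethylene 1-1, 1-2, 2-1 and 2-2, against 14761, 5469, 3299 and 9347 in air 1-1, 1-2, 2-1 and 2-2. The small subunit psaJ read 9189, 26385, 25236 and 14288 in ethylene against 42611, 24677, 16311 and 16385 in air, with both extremes in experiment 1. In photosystem II, 13 of 15 differences were below 0, with a median of −0.15. The highest was that of psbK (0.07), a small subunit of the core, with 10226, 14149, 16162 and 15964 in ethylene against 16571, 6550, 15564 and 18264 in air. In the cytochrome b6f complex 5 of 6 were below 0.

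The ATP synthase was the group with the highest median (0.11), and 4 of its 6 differences were above 0. The stalk subunit atpF (0.23) read 1709, 3910, 4220 and 6644 in ethylene 1-1, 1-2, 2-1 and 2-2, against 4964, 1583, 1662 and 7480 in air 1-1, 1-2, 2-1 and 2-2. The membrane subunit atpI (−0.87, limma adjusted p = 0.411), from the same gene cluster, was dim and read 128.2, 129.7, 339.7 and 337.7 in ethylene against 665.8, 395.1, 252.5 and 377.2 in air. The ranges of both genes overlapped between the groups. In the NDH complex, which returns electrons to the plastoquinone pool, 6 of 9 were below 0, between −0.71 for ndhG and 0.13 for ndhA. The gene ndhG read 1996, 881.5, 1152 and 759.6 in ethylene against 3418, 1125, 1283 and 2299 in air, and that of ndhA 3841, 5466, 4703 and 6019 in ethylene against 7459, 3383, 2390 and 6834 in air.

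For the genes of gene expression and of other functions, the values were as wide. In the plastid RNA polymerase, 3 of 4 differences were below 0, between −0.57 for rpoC2 and 0.02 for rpoC1. The subunit gene rpoC2 read 502.4, 1035, 1188 and 2053 in ethylene 1-1, 1-2, 2-1 and 2-2, against 2252, 966.9, 839.6 and 3406 in air 1-1, 1-2, 2-1 and 2-2. In the large ribosomal subunit 5 of 7 and in the small one 8 of 8 were below 0, with medians of −0.10 and −0.12. The large-subunit genes at the ends were rpl20 (−0.58), with 431.4, 581.1, 1209 and 2289 in ethylene against 2382, 570.5, 820.1 and 3182 in air, and rpl22 (0.33). Of the other 7 genes, 6 were below 0, between −0.38 for accD, a subunit of the acetyl-CoA carboxylase of fatty acid synthesis, and 0.02 for clpP, a protease subunit. The gene accD read 964.5, 1135, 1807 and 6006 in ethylene against 3237, 1038, 1490 and 6894 in air, and clpP read 16371, 17928, 11730 and 25723 in ethylene against 30862, 14467, 7563 and 25058 in air. For each of these genes the groups overlapped.

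Within experiment 2 and within experiment 1 the plastid genes leaned to opposite sides. In experiment 2 the ethylene difference was above 0 for 46 of 68 plastid genes, with a median of 0.10. Of these 68, 0 were called, where 6.23% of all tested probe sets were (limma, 2 arrays a group). At an unadjusted p under 0.05, 0 plastid genes were higher and 1 lower, where 1257 and 1641 of all 15922 were. In experiment 1 it was below 0 for 62 of 68, with a median of −0.42, and 3 were called lower, where 3.66% of all were. These were rps14 (−2.79, limma adjusted p = 0.00351), atpI (−1.87, 0.0280) and petD (−1.70, 0.0442). In experiment 2 the same 3 genes had differences of −0.56, 0.13 and −0.23. The gene psbB had −1.25 in experiment 2 (adjusted p = 0.149) and −1.64 in experiment 1 (0.0523).

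The side to which each experiment leaned changed with single arrays. Without air 2-2 the median of experiment 2 was 0.75, with 64 of 68 above 0, and without air 2-1 it was −0.45, with 6 above 0. Without ethylene 2-2 it was −0.05, with 29 above 0. Without air 1-1 the median of experiment 1 was 0.10, with 45 of 68 above 0, and without air 1-2 it was −1.02, with 0 above 0. The difference of the ethylene effect, experiment 2 minus experiment 1, was above 0 for 61 of 68 plastid genes with a median of 0.54. Of these 68, 0 were called (limma, smallest adjusted p = 0.797), and of all tested probe sets 0% were. At an unadjusted p under 0.05, 7 plastid genes were higher and 0 lower, where 521 and 397 of all 15922 were. The median difference of the effects was −0.08 without air 2-1, 0.03 without air 1-1 and 1.13 without air 1-2.

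The 2 experiments differed from each other in several plastid genes, over both groups, as in many other probe sets. In experiment 2 against experiment 1, 11 of 68 plastid genes were called higher, where 18.3% of all tested probe sets were (limma with a mean for each experiment and group). A further 4 were called lower, where 12.4% of all were. In this fit neither share of the plastid genes exceeded that of all tested probe sets. The actin 3′ to 5′ log2 ratio did not overlap between the experiments. It was 1.87 to 3.21 on the 4 arrays of experiment 2 and 0.50 to 1.72 on the 4 of experiment 1. The ubiquitin ratio overlapped and leaned the other way, with 0.78 to 1.46 in experiment 2 and 1.1 to 1.62 in experiment 1. The GAPDH ratio also overlapped, with −0.08 to 0.18 in experiment 2 and −0.35 to 0.5 in experiment 1. The part of these ratios in the differences between experiments was not tested. The median difference, experiment 2 minus experiment 1, was 0.22 over the plastid genes and 0.08 over all tested probe sets. Scaling each array to a common median moved the all-gene median by more than 0.1, to −0.07. The calls over all probe sets were then 1836 higher and 2961 lower, in place of 2919 higher and 1981 lower, and those among plastid genes 10 higher and 8 lower. With quantile scaling they were 2473 higher and 2274 lower over all, and 10 higher and 3 lower among plastid genes.

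The largest increases lay in a cluster of ribosomal protein genes. Of neighbouring genes in the order rps19, rpl22, rps3, rpl16, rpl14, the differences were 0.11, 1.57, 1.29, 1.40 and 1.79, and the last 4 were called higher (limma adjusted p between 0.00409 and 0.0114). The next tested plastid genes beyond rpl14, rpl36 and then rpoA, had differences of 0.20 and 0.31. They were not called (limma adjusted p = 0.655 and 0.409). The probe set of rpl14 (SE 0.39) read 3377 and 4286 in ethylene and 1829 and 4726 in air in experiment 2, against 475.3 and 1009 in ethylene and 2561 and 670.2 in air in experiment 1. For rpl16 (SE 0.30) the values were 15181 and 11178 in ethylene and 7229 and 11753 in air in experiment 2, against 2274 and 4481 in ethylene and 9205 and 3143 in air in experiment 1. In both genes air 1-1 was above air 2-1, so the experiments overlapped. For rps3 (SE 0.28) they were 10987 and 13958 in ethylene and 6357 and 14113 in air in experiment 2, against 2660 and 5107 in ethylene and 7638 and 3632 in air in experiment 1. That of rpl22 (SE 0.40) read 8856 and 11217 in ethylene and 4272 and 10846 in air in experiment 2, against 1803 and 4632 in ethylene and 5343 and 1319 in air in experiment 1. The call of rpl22 ended without ethylene 1-1 (1.23, adjusted p = 0.0626), and those of the other 3 were kept with each array left out.

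The gene psbZ, for a small subunit at the antenna side of photosystem II, rose by 1.26 (SE 0.29, limma adjusted p = 0.00589). It read 14103 and 11214 in ethylene and 6915 and 15137 in air in experiment 2, against 3403 and 4290 in ethylene and 9774 and 3472 in air in experiment 1. The remaining 6 increases were those of ndhE (1.24), rpl33 (1.203), rps16 (1.08), rpoC1 (1.07), psbT (1.03) and rps2 (0.65), with limma adjusted p between 0.0160 and 0.0428. Of these, rpoC1 read 5029 and 4938 in ethylene and 3574 and 8091 in air in experiment 2, against 2260 and 2958 in ethylene and 4334 and 1253 in air in experiment 1. All 6 missed the threshold when air 1-2, air 2-2 or ethylene 2-1 was left out. The call of rps2, which read 4624 and 4431 in ethylene and 2995 and 5252 in air in experiment 2, against 2377 and 2676 in ethylene and 4237 and 1960 in air in experiment 1, was also lost with either scaling over all probe sets, and that of psbT with quantile scaling.

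The 4 decreases were all in photosystem II, and 3 of them were neighbours. In the cluster psbE, psbF, psbL, psbJ the differences were −1.32, −1.04, −0.41 and −0.56, and psbE, psbF and psbJ were called lower. The genes psbE and psbF encode the 2 subunits of the cytochrome of photosystem II, and psbL and psbJ encode small subunits beside it. The probe set of psbE (SE 0.16, limma adjusted p = 8.45e-05) read 8757 and 6296 in ethylene and 4503 and 7382 in air in experiment 2, against 14486 and 14203 in ethylene and 19635 and 17782 in air in experiment 1. All 4 values of experiment 2 were below all 4 of experiment 1. This held for psbE, psbF, psbJ and psbM, 4 of 68 plastid genes, and for 10.4% of all tested probe sets. The calls of psbE and psbF were kept with each array left out and with either scaling over all probe sets. That of psbJ ended without ethylene 1-1, ethylene 2-2 or air 2-1 (adjusted p between 0.0597 and 0.0748).

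The fourth decrease, that of psbM (−0.70, limma adjusted p = 0.0105), another small subunit, ended with quantile scaling (−0.17, adjusted p = 0.339) and without air 2-1 (0.0503). The probe set was the brightest but 1 of the plastid genes, with 41611 and 48857 in ethylene and 35571 and 51053 in air in experiment 2, against 94206 and 53491 in ethylene and 75393 and 67006 in air in experiment 1. Of the 10 brightest plastid genes, psbM alone was called, while 9 had a difference below 0 and the median was −0.35, where quantile scaling gave 4 of 10 below 0 and a median of 0.05. The 99th percentile of intensity lay between 31998 and 39868 on the arrays of experiment 2 and between 41780 and 46728 on those of experiment 1. When arrays were scaled to a common plastid median, 0 of the 15 calls remained, and the whole table held 16 higher and 49 lower.

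**Figure D4:**
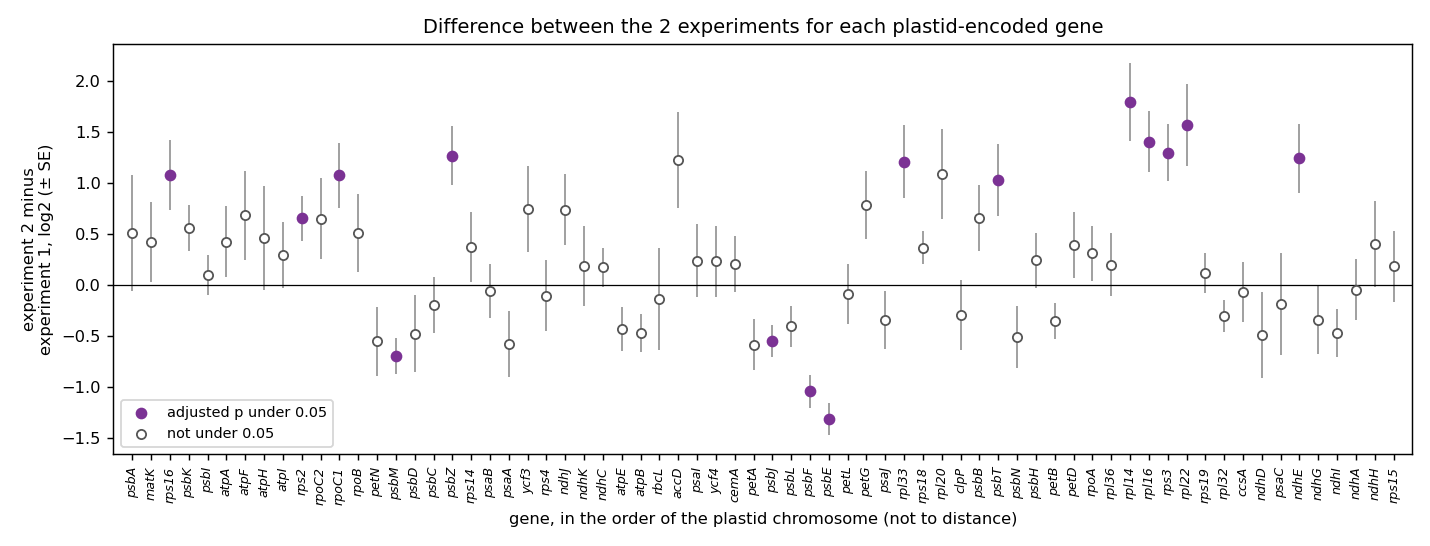
Difference between experiment 2 and experiment 1 on the log2 scale, with its SE, for each tested plastid gene in its order along the plastid chromosome; filled points passed the test (limma, adjusted p under 0.05). The 4 adjacent points from rpl14 to rpl22 lie between 1.29 and 1.79, and psbJ, psbF and psbE lie between −0.56 and −1.32.

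**Figure D5:**
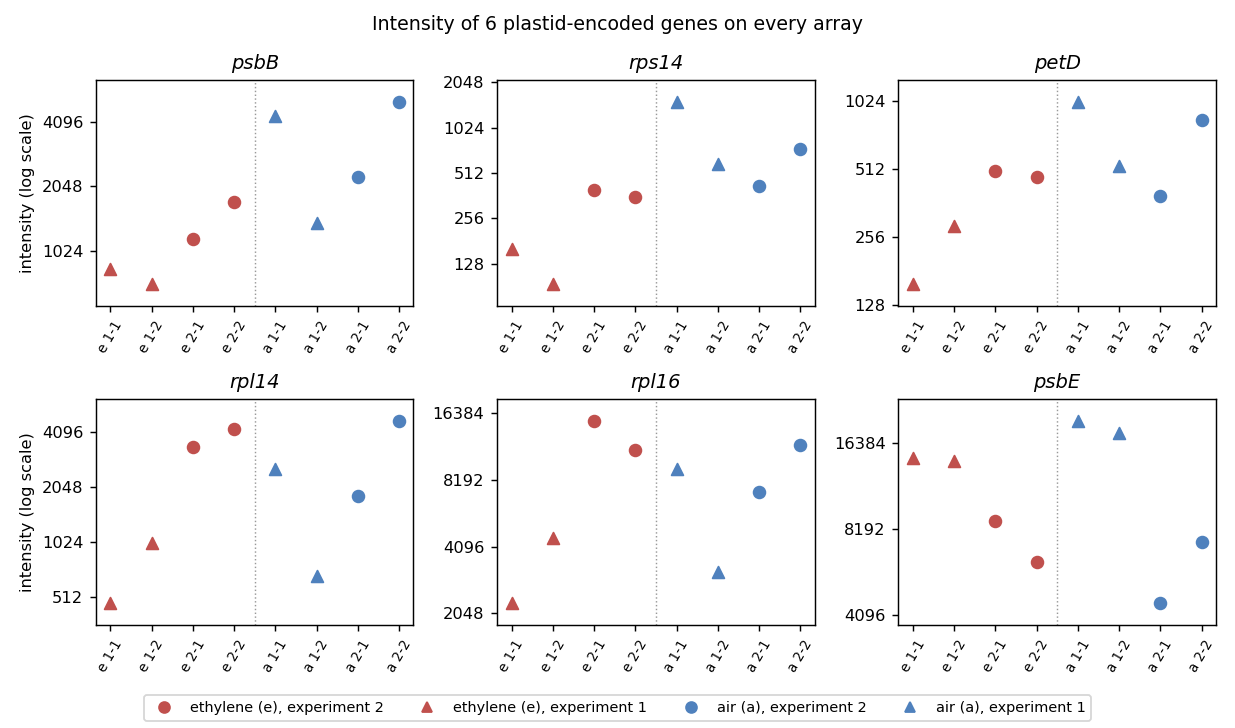
Intensity (log axis) of 6 plastid genes on every array, ethylene left of air, with circles for experiment 2 and triangles for experiment 1. For psbB and rps14 the ethylene points lie below the air points of the same experiment, for rpl14 and rpl16 air 1-1 lies among the values of experiment 2, and for psbE the experiments do not overlap.

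Nuclear genes whose products work with the plastid genes were taken as lists. Of 12 nuclear genes of photosynthesis with a named probe set, 0 were called for ethylene (limma, 0 also with the experiment as a block, and 0 at an unadjusted p under 0.05), with a median of 0.10. In experiment 2 against experiment 1, 2 of these were called higher, PSBW (0.52) and PSAE-1 (0.33), and 5 lower, LHCB4.2 (−0.95), NdhS (−0.95), NdhL (−0.69), PSBY (−0.47) and LHCB4.1 (−0.45). Of all tested probe sets 18.3% were called higher and 12.4% lower. The 2 LHCB4 genes encode a minor antenna protein of photosystem II, NdhS and NdhL are subunits of the NDH complex, and PSBY is a small subunit of photosystem II. Of 14 genes taken for plastid RNA editing, splicing and related steps, 9 were tested and 0 were called for ethylene (0 also with the block, and 0 at an unadjusted p under 0.05). The editing factor CRR21 (0.93) and CRR41 (0.69), which is needed to assemble the NDH complex, were called higher in experiment 2. These were 2 of the 9 tested, where 18.3% of all tested probe sets were called higher. This list also caught OTP43 and OTP87, which act in mitochondria. No nuclear gene of plastid transcription or of the plastid ribosome on the lists had a named probe set.

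Of 11 mitochondrially encoded genes, 9 were tested and 0 were called for ethylene (0 also with the block, and 0 at an unadjusted p under 0.05), with differences between −0.99 for matR and 0.32 for nad4L. Of the 9 tested, 1 was called lower in experiment 2, cox2 (−0.81, limma adjusted p = 0.00961), where 12.4% of all tested probe sets were. The chlorophyll synthesis gene PORB, the one light-response gene of the lists with a named probe set, read 35268 to 68256 in ethylene and 27524 to 35070 in air (0.60, limma adjusted p = 0.169, and 0.0248 with the experiment as a block).

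Organ markers could be followed only in small part, since the labels name whole seedlings and most markers had no named probe set. Markers were counted as listed symbols, and a marker was taken as measured only if a probe set named it alone. Of 10 root markers, 2 were measured, EXPA7 and EXPA18 of root hairs, and their summed intensity was 5572 to 6860 in ethylene and 3163 to 5317 in air. EXPA7 rose with ethylene (0.82, limma adjusted p = 0.0478), and EXPA18 had a difference of 0.44 (limma adjusted p = 0.266) and was called higher with the experiment as a block (limma adjusted p = 0.0453). Of 13 seed reserve markers, 1 was measured, OLEO3 of oil bodies, with 9417 to 11411 in ethylene and 5535 to 8020 in air (0.63, limma adjusted p = 0.0531, and 0.00132 with the experiment as a block, where it was called higher), and a difference of −0.31 between experiment 2 and experiment 1 (adjusted p = 0.0377). Of 8 shoot apex and epidermis markers, 1 was measured, CLV3, with 8.3 to 41.6 in ethylene and 15.9 to 182.8 in air. It was too dim to pass the filter and was not tested. Its air values were 182.8 and 166.6 in experiment 1, but 15.9 and 22.9 in experiment 2. None of the 8 listed symbols for chloroplast-rich leaf cells or the 5 for vascular tissue had a named probe set. The part of organ or reserve content in the plastid values was not tested.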

How the data were processed

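The authors deposited 1 linear intensity per probe set and array for 8 arrays, each with a mean of 2500.2 after the highest and lowest 2% are removed. How probes were summarised and RNA was labelled is not stated in these sources. Plastid genes were named through the array annotation and the RefSeq gene table of TAIR10.1. Values were converted to log2(intensity + 16), 64 control probe sets and the dimmest 30% were dropped, and the remaining 15922 entered limma 3.58.1 in R 4.3.3 (lmFit, eBayes with trend), with Benjamini-Hochberg adjustment over all of them. Ethylene was compared with air by group alone. A model with a mean for each experiment and group gave the other contrasts. The scripts were tested on simulated data.

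The first number of a label marks an experiment shared by both groups. Deviations from group means correlated across probe sets with r = 0.323, 0.397, 0.589 and 0.460 for same-numbered arrays, at least 0.284 for all pairs of the same experiment and at most −0.249 between experiments. No label pairs the replicas within an experiment. Ethylene 1-1 correlated more with air 1-2 (r = 0.492) than with air 1-1 (r = 0.323), and the other ethylene arrays correlated most with their same-numbered air array. Blocked values stand beside a result they change.

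The members, lists and tests were chosen with earlier results of these data known. Values on every array are given for the genes with the highest and lowest ethylene difference of each complex and the 6 largest called differences between experiments. Other genes were named after their values were seen, mostly as neighbours of these. FDH, listed as an epidermis marker, names formate dehydrogenase in the gene table and was left out. Alternatives were other pseudocounts (1, 64), filters, scalings and blocks, and each array left out. The number of arrays, 4 a group, limits the precision.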

Additional observations from a re-analysis of the deposited data

Results flagged for a closer look

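In 6 of 136 sets of 4 arrays (a plastid gene in 1 group), 1 array stood far from the other 3. The ratio of its gap to the whole range was above Dixon's critical value, and is given for each. Chance gives this in about 1 of 20 sets. On the ethylene side, ndhI (0.947), ndhD (0.890) and atpB (0.854) were lowest on ethylene 2-1, psbH (0.852) was lowest on ethylene 1-1, and psbJ (0.841) was lowest on ethylene 2-2. On the air side, psbK (0.844) was lowest on air 1-2. The gene ndhI read 28138 on ethylene 2-1 and 41563 to 42475 on the other ethylene arrays, and ndhD read 5316 there and 11904 to 13149 on the others.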

How the results depend on the processing

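No value changed direction among called results. For ethylene, 2 plastid genes were lower with the experiment or the 4 pairs as a replicate block, 0 with a random block (replica correlation 0.460) and 0 to 1 with 1 array left out (psbB without air 1-2, −1.79, adjusted p = 0.0262). Over all probe sets ethylene gave 249 higher and 411 lower, 690 and 1170 with the experiment block, 648 and 1139 with the pairs, 117 and 127 with the random block, 110 and 45 when scaled to the plastid genes, and 165 to 204 higher and 217 to 316 lower with 1 array left out. In the blocked fit with 1 array left out (chosen after seeing the data), petL, ndhG, psbT, petD, rpoA and rpoC2 each passed once. Within experiment 1, 1 plastid gene was lower with no filter and 1 with 50% left out, against 469 of 22746 and 517 of 11373 over all. With median scaling 5 were lower, and 0 when scaled to the plastid genes, against 505 and 2 of all 15922. With 1 array of experiment 2 left out 1 to 6 were lower, against 485 to 553 of all. Within experiment 2, 0 to 1 were higher with 1 array left out, and the median lay between −0.45 and 0.75. The median difference of the effects lay between −0.077 and 1.17. Between experiments, 17 plastid genes were higher and 8 lower with a random block (replica correlation −0.285), against 4150 and 2793 of all 15922. When scaled to the plastid genes 0 were higher and 0 lower, against 16 and 49 of all. With median scaling 8 were lower, against 2961 of all. With 1 array left out 5 to 19 were higher and 2 to 8 lower, against 1928 to 2874 and 1492 to 1850 of all. Quantile scaling gave a range of array medians for the plastid genes of 1.34, against 1.28. Where a value moved, the cause was not tested. Each member had 1 named probe set, so the alternative of a second probe set gave no value. Dim genes such as rps14, atpI and ndhF have no detection call, which limits the certainty of their levels.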
